A study of Mus musculus with 6 samples.

Results

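Jun, which pairs with Fos proteins to form the transcription factor AP-1, was mapped by ChIP-seq in rib chondrocytes, and its peaks in the 4 Hox gene clusters are described here. A peak was counted as a Hox cluster peak when its midpoint lay in 1 of 4 windows of the mouse genome build mm9. These were chr6:52090001-52220000 (HoxA), chr11:96050001-96235000 (HoxB), chr15:102745001-102875000 (HoxC) and chr2:74500001-74615000 (HoxD). The rule took 85 peaks of the 99162 in the list, 56 in HoxA, 6 in HoxB, 16 in HoxC and 7 in HoxD. It used position alone, which is also all that the list gives, and the windows were chosen with earlier results of these data known.

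The chondrocytes, the cells that make cartilage, came from the rib cartilage of untreated wild-type ICR mice at postnatal day 1. For the ChIP reaction 20000000 cells were fixed for 10 minutes (1% formaldehyde), the chromatin was sheared to fragments of 100 to 600 bp, and 9 μg of a Jun antibody was used. Of the 6 samples in the series, 1 was this Jun library and 1 its input DNA, taken from the same kind of cells, and the other 4 were RNA-seq libraries, which were not analysed here. The peak list was assigned to the Jun library, the only Jun ChIP sample in the series. It gives positions alone, so the read depth behind it is unknown, no peak has a height, and the labelled cell type could not be checked against marker genes. With 1 library no difference has a replicate check. The intervals below are exact 95% intervals of counts or shares. They cover counting error only and are too narrow for peaks that lie close together.

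Hox genes encode homeodomain transcription factors that give cells their position along the head-to-tail axis of the embryo. They stand in 4 clusters, and their order along the DNA follows the order of their expression: genes with low numbers, at the anterior end, act nearer the head, and genes with high numbers, at the posterior end, act in the tail, limbs and genitalia. In the axial skeleton Hox genes decide which vertebrae bear ribs, and Hoxa10, Hoxc10 and Hoxd10 block rib formation in the lumbar region. All 38 Hox genes considered were found in the RefSeq gene table of the later build GRCm38, which was used for their order only. In HoxA the run goes from Hoxa2 to Hoxa13 with rising coordinates, while in HoxB (Hoxb1 to Hoxb13), HoxC (Hoxc4 to Hoxc13) and HoxD (Hoxd1 to Hoxd13) the anterior end lies at the higher coordinates. Coordinates were not converted between builds, so no peak was assigned to a single Hox gene.

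AP-1 binds the sequence TGACTCA, which reads TGAGTCA on the other strand. RefSeq promoters (GRCm38.p6), taken as 250 bases before and 50 bases after a gene's start, were at hand for 22 of the 38 Hox genes, in 24 windows. The 24 windows covered 9 genes of HoxA and 9 of HoxD, but only 3 of HoxB and 1 of HoxC. The AP-1 sequence stood on either strand in 1 of these 24 (4.17%), against 1709 of all 32851 promoters in the table (5.20%). That promoter was 1 of 2 listed for Hoxd11, a gene that patterns the forearm and wrist. None of the 10 HoxA promoters held it. The related CRE sequence, TGACGTCA, was in none of the 24 Hox promoters and in 588 (1.79%) of all. The bases before the start of Hoxd11 are shown with the AP-1 sequence in capitals, beside those of its HoxA paralog Hoxa11, which has neither sequence in this stretch. Both run 5′ to 3′ on the strand of the gene. Their GRCm38 positions, chr2:74679308-74679557 on the plus strand and chr6:52245811-52246060 on the minus strand, cannot be set against the mm9 positions of the peaks.
Hoxd11: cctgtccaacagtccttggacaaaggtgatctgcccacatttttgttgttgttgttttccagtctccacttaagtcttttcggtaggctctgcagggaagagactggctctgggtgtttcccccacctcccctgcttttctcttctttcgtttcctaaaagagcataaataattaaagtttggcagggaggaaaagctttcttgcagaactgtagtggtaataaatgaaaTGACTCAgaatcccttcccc
Hoxa11: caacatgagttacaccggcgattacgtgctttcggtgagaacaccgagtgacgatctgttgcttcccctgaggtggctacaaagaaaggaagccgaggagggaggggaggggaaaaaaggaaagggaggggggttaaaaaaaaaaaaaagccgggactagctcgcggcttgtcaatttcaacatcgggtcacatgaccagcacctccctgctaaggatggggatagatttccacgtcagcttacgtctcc
In Hoxd11 the first base of the AP-1 sequence lies 20 bases before the start. A match of letters does not show binding, and whether a Jun peak lies on either promoter was not determined.

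Jun peaks were many in HoxA, fewer in HoxC and few in HoxB and HoxD. HoxA held 56 peaks in 130 kb, or 43.1 peaks per 100 kb (95% Poisson interval 32.5 to 55.9). HoxC, a window of the same length, held 16, or 12.3 per 100 kb (7.03 to 20). HoxD held 7 in 115 kb, or 6.09 per 100 kb (2.45 to 12.5), and HoxB 6 in 185 kb, or 3.24 per 100 kb (1.19 to 7.06). The whole list had 4.07 peaks per 100 kb over the spans of the autosomes. HoxA made up 23.2% of the summed length of the 4 windows and held 65.9% of their peaks.

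The density of HoxA was 3.50 times that of HoxC (1.98 to 6.54), 7.08 times that of HoxD (3.22 to 18.4) and 13.3 times that of HoxB (5.73 to 37.7). HoxB was also below HoxC, at 0.264 times its density (0.0845 to 0.709). The intervals of the remaining 2 of the 6 pairs held 1: HoxC had 2.02 times the density of HoxD (0.787 to 5.81) and HoxB had 0.533 times that of HoxD (0.148 to 1.85). The intervals were not adjusted for the 6 pairs. Merging peaks within 1000 bp of each other brought HoxA to 24 regions and HoxC to 11, a ratio of 2.18 (1.03 to 4.93). The same merging lowered the ratio of HoxA to HoxB to 5.69 (2.27 to 17.0). Windows made 10 kb shorter at each end, which lost 3 HoxD peaks, gave 12.1 (4.47 to 45.9) for HoxA over HoxD. In the first 50% of the list, in its deposited order, HoxA over HoxC was 1.75 (0.685 to 4.81).

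**Figure D1:**
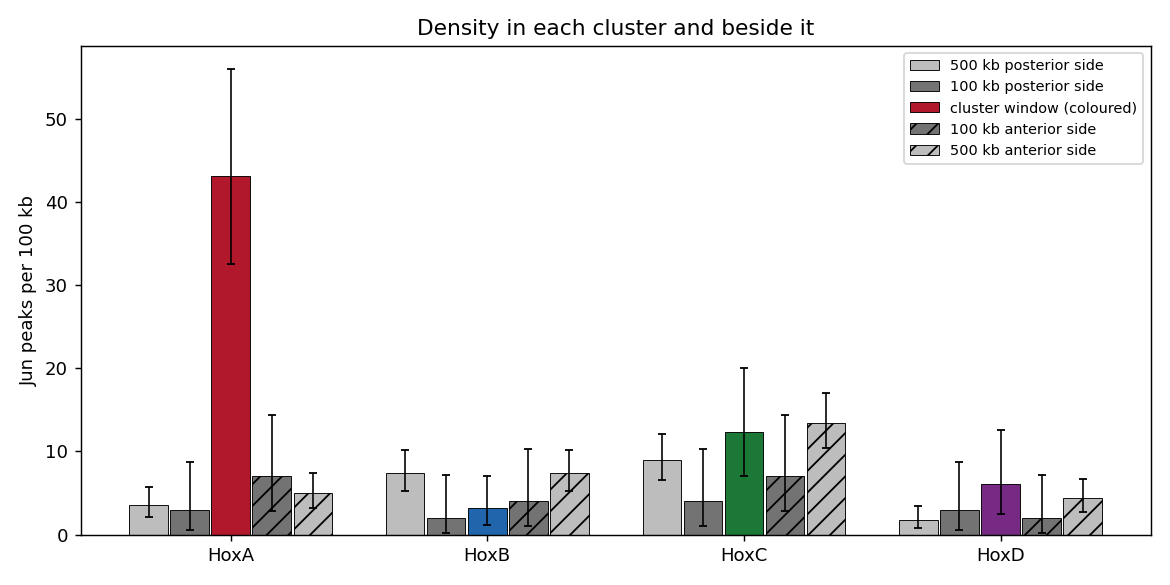
Jun peaks per 100 kb (vertical axis) in each Hox cluster window (coloured bar) and in the 100 kb (dark grey) and 500 kb (light grey) on its posterior side (plain) and anterior side (hatched). Bars start at 0 and the lines are exact 95% Poisson intervals; HoxA, at 43.1 per 100 kb, stands above all 4 of its flanks, whereas the intervals of HoxB overlap those of its flanks.

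To give these counts a scale, the 19 autosomes were cut into consecutive tiles of each window's length. Of the 18483 tiles of 130 kb, 21 (0.114%) held at least as many peaks as HoxA, and 0.373% did once peaks within 1000 bp were merged. The median tile held 3 peaks, 95% of tiles held 19 or fewer, and the fullest held 106. For HoxC 8.39% of such tiles were as full, for HoxD 26.6% of 20893 tiles of 115 kb and for HoxB 44.1% of 12992 tiles of 185 kb. HoxB and HoxD therefore lay in the common range of the list, while HoxA lay among its fullest places. As the windows were chosen with earlier results of these data known, these shares serve as a scale only. The window of HoxA was set around the cluster and the tiles by a fixed grid, which spread the HoxA peaks over neighbouring tiles, so that none of the 21 tiles overlapped the HoxA window.

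**Figure D2:**
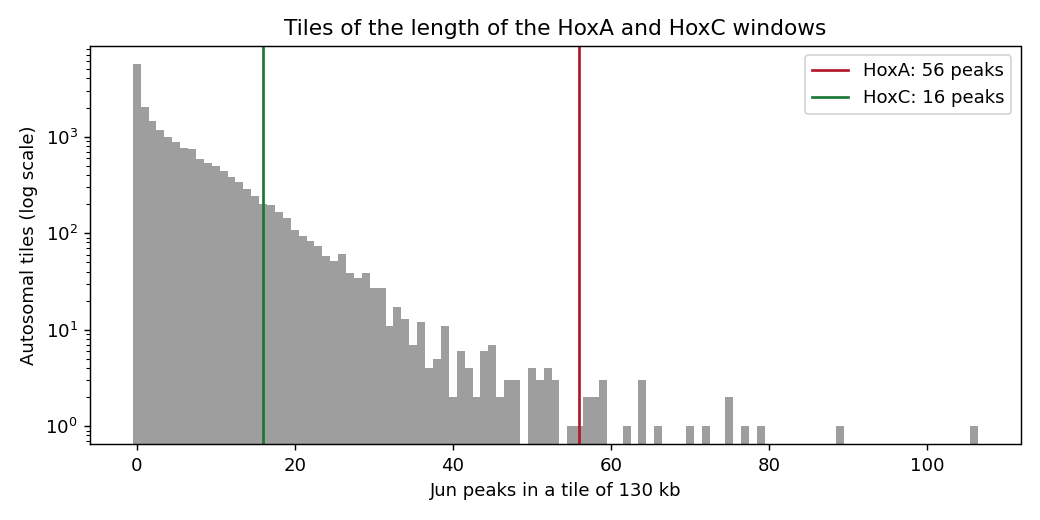
Number of autosomal tiles of 130 kb (vertical axis, log scale) by the number of Jun peaks they hold (horizontal axis). The vertical lines mark HoxA, with 56 peaks, and HoxC, with 16; tiles to the right of the HoxA line are rare.

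The surroundings of HoxA did not share its density. The 100 kb beyond its anterior end, where Skap2, encoding an adaptor protein of immune cell signalling, is the next protein-coding gene in the gene table, held 7 peaks (2.81 to 14.4 per 100 kb). The 100 kb beyond its posterior end, next to the homeobox gene Evx1, held 3 (0.619 to 8.77 per 100 kb). HoxA was 6.15 times denser than the first (2.80 to 16) and 14.4 times denser than the second (4.67 to 71.7). Over 500 kb the flanks held 25 and 18 peaks, or 5.0 and 3.60 per 100 kb, against which HoxA was 8.62 times (5.29 to 14.4) and 12 times (6.93 to 21.6) denser. The nearest peaks outside the window lay 33.0 kb from its anterior and 5.68 kb from its posterior edge.

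The other clusters differed less from their flanks. In the main counts HoxD lay above the 500 kb on its posterior side, where the homeobox gene Evx2 is the next protein-coding gene. That side had 9 peaks (1.80 per 100 kb), and HoxD was 3.38 times as dense (1.07 to 10.2). After merging within 1000 bp, HoxD had 3.48 regions per 100 kb (0.948 to 8.91) and that side 1.80 (0.823 to 3.42). With windows 10 kb shorter at each end HoxD had 4.21 peaks per 100 kb (1.15 to 10.8). The ratio was not computed for these settings, and no flank ratio was adjusted for the number of ratios. The 500 kb anterior side of HoxD, next to Mtx2, held 22 peaks (4.40 per 100 kb, ratio 1.38, 0.499 to 3.35). HoxB, between Skap1 and Ttll6, was at 0.438 times the density of the 500 kb on each side, which held 37 peaks each (0.151 to 1.05). HoxC, between Smug1 and Calcoco1, had 67 peaks in the 500 kb on its anterior and 45 on its posterior side, with ratios of 0.918 (0.497 to 1.60) and 1.37 (0.722 to 2.47). In the nearer 100 kb the flanks of HoxB held 4 and 2 peaks, those of HoxC 7 and 4 and those of HoxD 2 and 3, anterior side first, and every interval of these 6 ratios held 1.

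When each window was divided at its midpoint, HoxC had its peaks mostly on the anterior side. In HoxA 34 peaks lay on the anterior and 22 on the posterior side, 60.7% anterior (95% Clopper-Pearson interval 46.8 to 73.5). In HoxC 13 of 16 lay on the anterior side, 81.3% (54.4 to 96.0), the only interval of the 4 that did not hold 50%. HoxB had 3 on each side (11.8 to 88.2%). HoxD had 2 on the anterior and 5 on the posterior side, 28.6% anterior (3.67 to 71.0), and 2 on each side after merging or with the shorter windows. Over the 4 clusters 52 of 85 peaks were anterior, 61.2%, with an interval that just held 50% (50.0 to 71.6), and HoxA and HoxC held 47 of these 52. The interval lay above 50% with peaks of at least 50 bp only (50.1 to 71.9) and with the shorter windows (52.0 to 73.8). It held 50% after merging within 1000 bp (46.5 to 76.2) and with windows 10 kb longer at each end (48.1 to 69.5). The same was true in the first 50% (40.6 to 81.2) and the last 50% of the list (47.3 to 72.9). Counting by overlap left it unchanged. For HoxC the densities were 20 per 100 kb on the anterior and 4.62 on the posterior side, a ratio of 4.33 (1.19 to 23.7). With peaks within 1000 bp merged, the HoxC share was 81.8% (48.2 to 97.7).

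**Figure D3:**
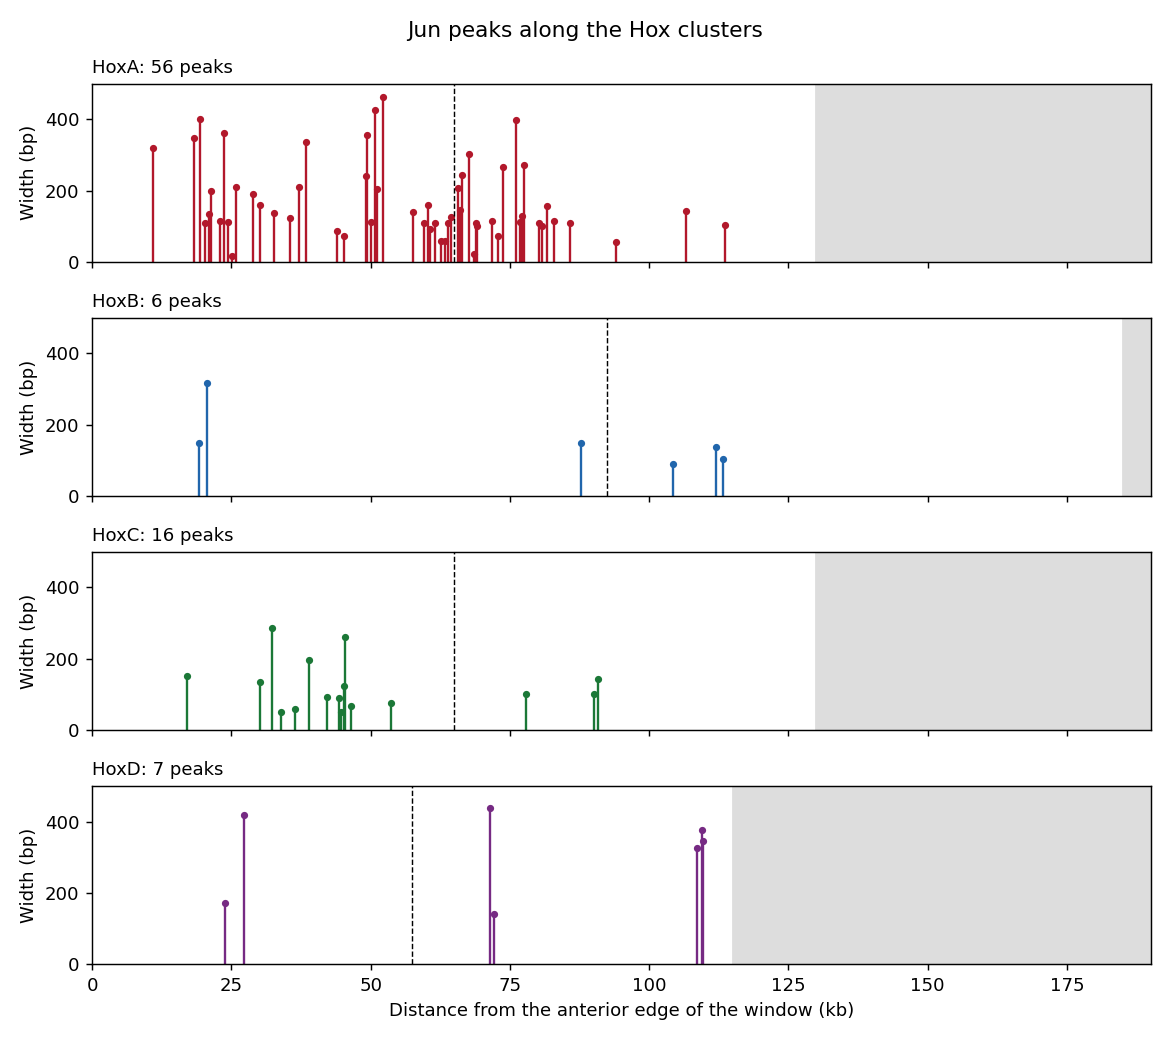
Every Jun peak of the 4 Hox clusters by its distance from the anterior edge of the window in kb (horizontal axis) and its width in bp (vertical axis). Dashed lines mark the midpoints and grey areas lie outside the windows; the HoxA peaks stop short of its posterior end, and the HoxC peaks gather on the anterior side.

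The midpoint hid the shape of HoxA, where the peaks filled the anterior and central stretches and left the posterior end nearly empty. When the window was cut into 3 stretches of 43.3 kb, the anterior one held 17 peaks, the central one 36 and the posterior one 3. The posterior end of this cluster carries Hoxa11 and Hoxa13, which pattern the limb and the genital tract. In steps of 10 kb, 11 of 13 bins held a peak. The fullest bin, from 60 to 70 kb behind the anterior edge, held 14, and the next fullest, from 20 to 30 kb, held 9. The last 40 kb held 3 peaks, and none lay beyond position 52203581, which leaves the last 16.4 kb of the window without any.

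Most HoxA peaks belonged to 1 chain. Joining peaks whose centres lay within 10 kb of each other gave a group of 54 of the 56 HoxA peaks, over 83.3 kb (chr6:52100733-52184019). The list held 38356 such groups, of which 20, this one included, had 54 or more peaks. The median distance between neighbouring HoxA centres was 953.5 bp, and 41 of the 55 distances (74.5%) were within 2 kb. This share was not determined for the whole list, and a window with many peaks has short distances by construction. The closest pair, at 52158898 to 52159007 and 52159070 to 52159171, had centres 168 bp apart. Merged within 1000 bp, HoxA gave 16 lone peaks and 8 regions of 2 or more, which held 40 peaks. The fullest region joined 8 peaks over 5052 bp (chr6:52149434-52154485), just on the anterior side of the midpoint, and the next joined 7 over 3541 bp (chr6:52155631-52159171), just past it. Further regions joined 6 peaks (chr6:52139119-52142456) and, nearer the anterior end, 5 each (chr6:52108172-52111388 and chr6:52112882-52116014). In all, the HoxA peaks covered 9814 bp, 7.55% of the window.

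HoxC had 1 dense stretch. A group of 12 of its 16 peaks lay in 23.6 kb (chr15:102821285-102844898), on the anterior side, and 803 of the 38356 groups in the list (2.09%) were as full. Within it, 5 peaks merged into a region of 2112 bp (chr15:102828534-102830645), which included the closest pair of the cluster, with centres 254 bp apart. The posterior side held a pair at 102784130 to 102784998 and a lone peak at 102797003. The longest stretch without a peak was the posterior 39.1 kb, at the end nearest Hoxc13, a gene of hair and nail formation. HoxC peaks covered 1.52% of the window.

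HoxB held 6 peaks, none of them within 1000 bp of another. Chained within 10 kb, 5 of them fell into a group of 3 over 9.08 kb and a pair over 1.57 kb, and 1 stood alone. On the posterior side of the midpoint they lay at 96121733 to 96121837, 96122993 to 96123129 and 96130722 to 96130811. On the anterior side they lay at 96147150 to 96147299, 96214278 to 96214594 and 96215703 to 96215851. The posterior 71.7 kb (chr11:96050001-96121732) held none. The gene nearest this end is Hoxb13, which stands apart from the rest of its cluster and acts in the tail and prostate. Of the 19 bins of 10 kb, 14 were empty.

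The 7 HoxD peaks formed 3 separate sets. At the posterior end, the one nearest Hoxd13, a gene of digit formation, 3 peaks lay within 1364 bp, at 74505224 to 74505569, 74505358 to 74505734 and 74506262 to 74506587. The first 2 overlapped by 212 bp, 1 of 2 overlaps between Hox cluster peaks, the other being in HoxA. A pair lay at 74542791 to 74542930 and 74543394 to 74543832, and another pair, the only peaks on the anterior side, at 74587620 to 74588037 and 74590999 to 74591171. A stretch of 43.8 kb (chr2:74543833-74587619) without a peak separated the pairs. Since the posterior set lay within 10 kb of the edge, windows made 10 kb shorter at each end kept only 4 HoxD peaks.

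Wide peaks were more frequent in HoxA and HoxD than in the list as a whole, while the intervals of HoxB and HoxC held the share of the list. The median width over the 4 clusters was 137 bp (central 50% from 103 to 242 bp), against 114 bp (88 to 151 bp) for all peaks. Its 95% interval from ordered widths, 113 to 156 bp, held the median of the list, as did that of HoxA (median 132.5 bp, 112 to 160). Of the 85, 27 (31.8%, 22.1 to 42.8) reached 200 bp, against 14.0% of the whole list. HoxA held 19 of these 27, 33.9% of its peaks (21.8 to 47.8). HoxD held 5, 71.4% of its 7 peaks (29.0 to 96.3), and its median width was 346 bp. These 5 included the set of 3 within 1364 bp, of which 2 overlap by 212 bp, so this interval is too narrow. In HoxC 2 of 16 peaks (12.5%, 1.55 to 38.3) and in HoxB 1 of 6 (16.7%, 0.421 to 64.1) were that wide, which is near the share of the list. Medians there were 101.5 and 143 bp.

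The widest Hox peak, of 462 bp, lay in HoxA at 52141995 to 52142456, on the anterior side. The widest of HoxD measured 439 bp (74543394 to 74543832), of HoxB 317 bp (96214278 to 96214594) and of HoxC 286 bp (102842628 to 102842913). Within HoxA, 13 of the 19 peaks of 200 bp or more were on the anterior side, as were 34 of all its 56 peaks (60.7%). The median width of all HoxA peaks was 138.5 bp on the anterior and 114.5 bp on the posterior side. Of the 85 Hox peaks, 2 (2.35%) were under 50 bp, against 6247 (6.30%) of the 99162 in the whole list. Both lay in HoxA, and the narrower measured 17 bp. HoxA lay within the range of other full places in its widths. In the 21 autosomal tiles with at least as many peaks, median width ran from 102.5 to 181 bp with a median of 131.5, against 132.5 bp in HoxA. The share of peaks of 200 bp or more ran from 10.3% to 45.5% in these tiles.

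The deposited order of the peaks does not follow the genome from end to end, and the sources used here do not explain it. Some HoxA peaks stood on nearly adjacent rows, such as places 95641, 95643 and 95644, so places are not all separate observations. The place of a peak is given only as a description. Hox cluster peaks stood late in the list. Of 85, 61 (71.8%) were in the last 50%, 21 (24.7%) in the last 10% and 3 in the first 10%. The median place was at 67.7% of the list for HoxA, 73.0% for HoxB, 47.1% for HoxC and 94.1% for HoxD. All 7 HoxD peaks were in the last 50%, the earliest at 59.9%. HoxC was evenly split, with 8 peaks in each part, and had the earliest Hox peak of all, at 102832724 to 102832817, at 6.68% of the list. The earliest of HoxA, at 52110228 to 52110337, stood at 8.58%, and that of HoxB, at 96130722 to 96130811, at 21.6%. Of the 21 autosomal tiles as full as HoxA, 3 had a median place as late as its own. Wide peaks stood late as well: 26 of the 27 Hox peaks of 200 bp or more were in the last 50%, as were 67.6% of such peaks in the whole list.

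**Figure D4:**
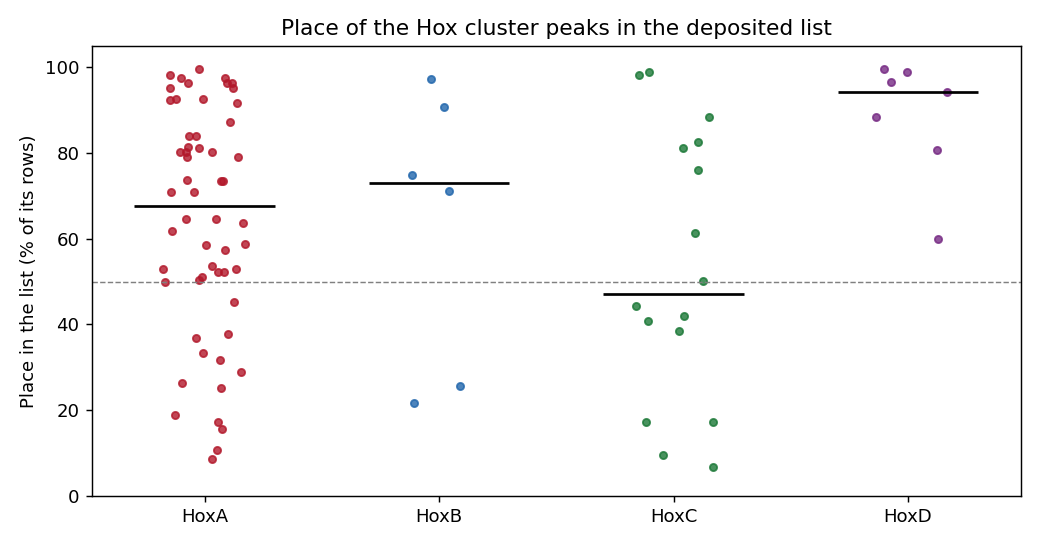
Place of each Hox cluster peak in the deposited list, as percent of its rows (vertical axis), by cluster. Points are peaks, spread sideways for clarity, solid lines are medians and the dashed line marks the middle of the list; all 7 HoxD points lie above it.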

How the data were processed

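The authors' deposited list of Jun peaks gives the mm9 interval of each peak, per the submitters' processing notes, with no header, score or strand. The sources used here do not state the aligner, the peak caller, its threshold or the use of the input library, and the read depth is unknown. The name of the list carries the label FDR1 (FDR, false discovery rate), which these sources do not explain. Starts were raised by 1 so that positions count from 1. The 4 windows, the genes and the comparisons were chosen with earlier results of these data known. Peaks were counted by midpoint in Python 3.11.15 (numpy 2.4.6, pandas 2.3.3), and exact Poisson, Clopper-Pearson and conditional binomial intervals came from scipy 1.17.1. No test was made, since there is 1 library. The counting was tested on simulated data. Named in each cluster are the widest peak, the peak listed first, the closest pair and the longest stretch without a peak, and every peak where a cluster held 12 or fewer. HoxA and HoxC merged regions and groups were named after their values were seen. Alternatives merged peaks within 1000 bp, required 50 bp of width, used parts of the list, moved the window edges by 10 kb, counted by overlap, took outer stretches or changed the tiles. RNA-seq values, the input library and Sox9 peaks were not analysed here.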

Additional observations from a re-analysis of the deposited data

How the results depend on the processing

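Of 210 alternative values of 50 results, 173 stayed within the counting interval of the main value, or within 1.5 times it for shares of tiles. The other 37 moved out of it. A reversal was defined only for density ratios between clusters whose main interval did not hold 1, and none of those crossed 1. A width of at least 50 bp, window edges moved by 10 kb, counting by overlap, tiles of the same chromosome and tiles with at least 1 peak moved none. Merging within 1000 bp, which counts close peaks once, gave 18.46 per 100 kb in HoxA and 0.373% of tiles as full, median widths of 175 bp in HoxA and 730 bp in HoxD, 5.0 and 5.20 per 100 kb in the anterior and posterior 500 kb of HoxB and 9.20 in the anterior 500 kb of HoxC. A tile grid shifted by 50%, chosen after seeing the data, gave 0.0757% of tiles as full as HoxA.

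Using part of the list leaves fewer peaks by construction. The first 50% gave 10.8 per 100 kb in HoxA, 1.08 in HoxB, 6.15 in HoxC and 0 in HoxD (0 to 3.21), and the last 50% gave 32.3 in HoxA and 6.15 in HoxC. In the 500 kb flanks, anterior then posterior, the first 50% gave 2.40 and 2.00 for HoxA, 4.0 and 3.60 for HoxB, 6.60 and 4.0 for HoxC and 2.20 and 0.200 for HoxD. The last 50% gave 2.60 and 1.60 for HoxA, 3.40 and 3.80 for HoxB, 6.80 and 5.0 for HoxC and 2.20 on the anterior side of HoxD. In the 100 kb flanks it gave 1.00 on the posterior side of HoxC and 0 on the anterior side of HoxD. The anterior share of HoxB was 0% in the first 50%, of 2 peaks. Taking the outer stretches only drops the central stretch, with 36 peaks in HoxA and 4 in HoxB. The anterior share was then 85.0% in HoxA (62.1 to 96.8), an interval that did not hold 50%. It was 100% in HoxB (2 peaks) and 77.8% (60.8 to 89.9) over the 4 clusters. The HoxC share was 77.8% (40.0 to 97.2) with the outer stretches. It was 75% (34.9 to 96.8) in the first 50% of the list and 87.5% (47.3 to 99.7) in the last 50%. Each of these HoxC intervals held 50%. HoxB over HoxC was 0.383 (0.116 to 1.13) after merging and 0.351 (0.0774 to 1.31) in the last 50%. HoxC over HoxD was 3.45 (1.11 to 14.2) with shorter windows and 1.01 (0.320 to 3.28) in the last 50%. No paired analysis was possible because the peak list comes from 1 library. Without read depth, a stretch without peaks cannot be taken as unbound.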
